A study of Homo sapiens with 18 samples.

Results

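Peaks of open chromatin were measured by ATAC-seq in Ccd18-Co cells, a human colon fibroblast line. By the rule below, 568 of 334857 (0.170%) were less open in cells that had been pulsed with inflammatory cytokines. In these, every library of pulsed cells lay below every library of unstimulated cells, and the mean was lower by a set margin. The 568 were chosen from the counts. Each count was divided by its library's total and multiplied by 1000000, which gives the CPM. A peak was taken when its 18 counts summed to at least 100, when each of the 12 conditioned libraries lay below the lowest of the 6 unstimulated ones, and when the mean CPM of the 12 was at most 0.67 times that of the 6. Of the 181571 peaks with at least 100 counts, 1609 (0.886%) had all 12 conditioned libraries below all 6 unstimulated ones, and 568 of these also met the limit on the ratio. Since the choice used these very values, the difference from unstimulated cells is given below as a description, without a test.

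The series compared 3 groups of 6 libraries. Unstimulated cells received no cytokine. Both conditioned groups received 3 pulses of TNF, OSM and IL-17A at 10 ng/ml each with IL-1B at 0.1 ng/ml, each pulse lasting 72 h in serum-free medium and followed by 96 h of recovery. After 1 week of rest these cells were given either DMSO, the solvent, or 250 nM belinostat, an inhibitor of histone deacetylases, for 5 days and were collected 2 weeks after that. All libraries come from a single cell line used up to passage 20, nothing in the sources used here says that the replicates are separate cultures, and p-values then measure only the spread between these libraries. These are the doses of the labels, and the study's text gives, in places, a higher concentration of belinostat and a lower one of IL-1B. Which of them applied to these libraries was not settled here. The methods hold DMSO at the same dilution in all modulator treatment groups, and the labels of the unstimulated libraries do not name a vehicle. Those labels also give no times of rest or collection, and no medium changes. Whether unstimulated cells followed the same schedule is thus not stated. Effects of time in culture or serum-free medium cannot be told apart from those of the cytokines here. Cells were collected once, so "closed" here means less open at one late time point, and the DMSO and belinostat libraries are different cells, not the same cells before and after the drug.

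ATAC-seq counts DNA fragments cut by a transposase that reaches only accessible DNA. A lower count can mean that fewer cells, or fewer alleles, had the site open, and these cannot be told apart in bulk libraries. CPM is also a share of the library's total, so it can fall when other peaks take more of the counts. Accessible sites away from gene starts are often enhancers, where transcription factors bind and keep nucleosomes away. Factors of the basic helix-loop-helix family, among them TCF21 and TWIST1 in mesenchyme and MYOD1 in muscle, read short words called E-boxes, while AP-1, a dimer of FOS and JUN proteins, reads another word and is known for opening enhancers after inflammatory signals.

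E-box words were frequent in the 568 peaks, with shares given below, and 5 of the peaks are printed here as examples. These 5 were picked for the words they hold, so they do not measure how frequent the words are. They are the 3 peaks with the lowest ratio that hold the palindromic E-box CAGCTG, and the 2 with the lowest ratio that hold the word CTATTTNTA read by MEF2, a factor of muscle and other mesenchymal cells. Each line gives the central 200 bases of a peak on the + strand of hg38, and capitals mark these words, and a second E-box word CATCTG where present, on either strand.

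intergenic peak 31.1 kb from the start of KIAA0040, chr1:175223976-175224175: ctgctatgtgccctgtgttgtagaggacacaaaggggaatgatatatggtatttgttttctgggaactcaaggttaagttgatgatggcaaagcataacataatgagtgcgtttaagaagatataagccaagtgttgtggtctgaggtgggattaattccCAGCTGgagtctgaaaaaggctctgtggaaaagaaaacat
intron of RYR2, chr1:237235213-237235412: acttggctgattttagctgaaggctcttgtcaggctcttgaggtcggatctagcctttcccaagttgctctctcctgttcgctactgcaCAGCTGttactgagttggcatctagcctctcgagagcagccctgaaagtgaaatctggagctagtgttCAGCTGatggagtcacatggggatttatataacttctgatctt
peak 306 kb from the start of NCAM1, chr11:112655548-112655747: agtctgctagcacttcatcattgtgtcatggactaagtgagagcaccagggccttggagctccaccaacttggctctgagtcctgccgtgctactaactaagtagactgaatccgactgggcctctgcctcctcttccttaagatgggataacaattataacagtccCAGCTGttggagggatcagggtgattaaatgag
intron of STK32A, chr5:147337098-147337297: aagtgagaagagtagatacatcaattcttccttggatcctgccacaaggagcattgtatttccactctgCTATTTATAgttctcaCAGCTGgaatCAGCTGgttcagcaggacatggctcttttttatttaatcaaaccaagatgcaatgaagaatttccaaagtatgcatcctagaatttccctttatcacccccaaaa
intron of SELENOP, chr5:42843195-42843394: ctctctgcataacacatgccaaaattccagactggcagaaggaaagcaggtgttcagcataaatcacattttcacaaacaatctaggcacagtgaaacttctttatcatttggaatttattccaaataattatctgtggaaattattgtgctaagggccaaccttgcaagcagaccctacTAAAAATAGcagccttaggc

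The intron of STK32A holds 2 palindromic E-boxes beside a MEF2 word, and the intron of RYR2 holds 2 palindromic E-boxes. The window in SELENOP holds neither CAGCTG nor CATCTG. A match of letters is a description of the sequence, not evidence that a factor binds there.

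Libraries held 7077321 to 11352032 counts in unstimulated cells, 6488975 to 8066642 with DMSO and 4661678 to 6370845 with belinostat. The strongest 10000 peaks took 36.8% ± 1.26 (SD, n = 6) of counts in unstimulated cells, 33.1% ± 1.28 with DMSO and 30.9% ± 2.23 with belinostat, so counts in the conditioned libraries were spread over more weak peaks. The median ratio of all peaks in the strongest of 20 equal bins of mean CPM was 0.877, against 2.33 in the weakest bin, and 496 of the 568 (87.3%) lay in the 4 strongest bins, where the median ratio was 0.924. The part of this spread in the size of the ratios was not tested, and the choice of peaks moved with the scaling: when CPM was corrected by TMM factors, 3788 peaks met the rule, and when it was corrected for abundance by loess, 716 did, of which 331 were among the 568 (58.3% of the 568). The cells carried open starts at 8 of 9 fibroblast marker genes in the panel (THY1 had no peak within 1 kb), with a summed level of 189 to 203 CPM in unstimulated libraries, 149 to 180 with DMSO and 147 to 198 with belinostat. Epithelial, immune and endothelial markers summed to at most 12.0 CPM in any library, immune markers to at most 1.69 CPM with 4 of 5 without a peak, and none of the 568 lay at any of these starts. The endothelial sum was 3.06 to 4.68 CPM in unstimulated libraries, 4.06 to 6.47 with DMSO and 5.87 to 12.0 with belinostat, and its part in the results was not tested.

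The 568 peaks together took 0.713% ± 0.0267 of all counts in unstimulated libraries (lowest 0.683%, median 0.705%, highest 0.755%). With DMSO they took 0.480% ± 0.0274 (0.427%, 0.487% and 0.506%), and with belinostat 0.371% ± 0.0340 (0.321%, 0.380% and 0.406%). The groups do not overlap, which the rule fixes for unstimulated against conditioned cells but not for DMSO against belinostat.

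**Figure D1:**
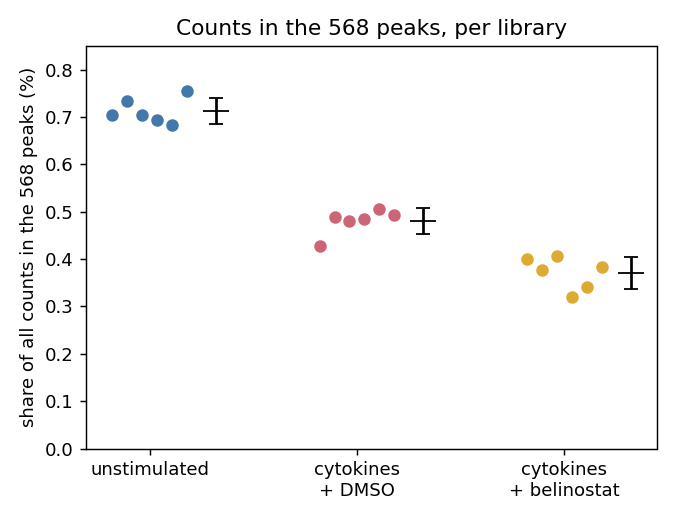
Share of each library's counts that fell in the 568 peaks (y axis, %), by group (x axis, 6 libraries each), with points for libraries and a black bar for the mean ± SD. The share was 0.683% to 0.755% in unstimulated libraries, 0.427% to 0.506% with DMSO and 0.321% to 0.406% with belinostat. The peaks were chosen with the libraries of all 3 groups.

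Single peaks fell to a median of 0.591 of their unstimulated mean (lowest 0.291), and 88 fell to at most 0.5. The unstimulated level was 1.51 to 57.1 CPM with a median of 9.61 CPM, and a peak rested on 131 to 5743 counts over the 18 libraries. With DMSO alone the median ratio was 0.654 (0.372 to 0.830), and with belinostat 0.521 (0.191 to 0.758). The limit on the mean of the 12 was therefore met through the belinostat libraries in many peaks: 239 of the 568 had a DMSO mean above 0.67 of the unstimulated mean, against 17 with such a belinostat mean. The belinostat mean lay below the DMSO mean in 499 peaks and above it in 69.

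**Figure D2:**
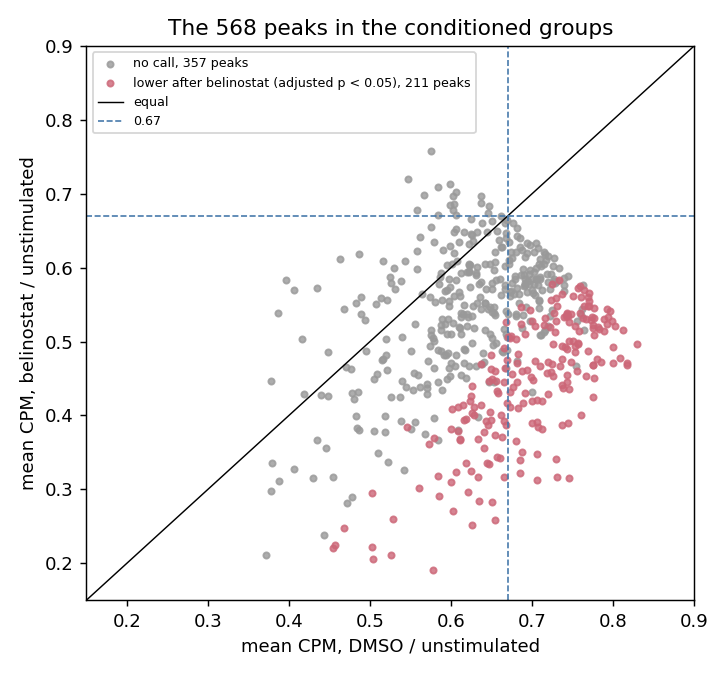
Each point is one of the 568 peaks, with the DMSO mean over the unstimulated mean on the x axis and the belinostat mean over the unstimulated mean on the y axis (ratios of CPM, no unit). The dashed lines mark 0.67, the solid line equality, and the 211 red points the peaks lower after belinostat at an adjusted p under 0.05. Of the 568 points, 499 lie below the line of equality.

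The peak that fell furthest lay in an intron of PIGU, which encodes a subunit of the enzyme that attaches GPI anchors (chr20:34605019-34605418). It had 3.11, 4.16 and 5.55 CPM (lowest, median and highest) in unstimulated libraries, 0.970, 1.52 and 2.47 CPM with DMSO, and 0.429, 0.745 and 1.76 CPM with belinostat, from 314 counts in all. Its mean over the 12 was 0.291 of the unstimulated mean. The DMSO and belinostat libraries overlapped.

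The intergenic peak near KIAA0040 (chr1:175223807-175224344) had 5.64, 6.30 and 6.97 CPM in unstimulated libraries, 2.03, 2.87 and 3.70 CPM with DMSO and 0.858, 1.33 and 2.02 CPM with belinostat. All 6 belinostat libraries lay below all 6 DMSO libraries, which in turn lay below all unstimulated ones. The peak 306 kb from NCAM1, a gene of cell adhesion in neurons and muscle, had 7.29, 9.41 and 10.7 CPM in unstimulated libraries, 2.80, 4.12 and 5.33 CPM with DMSO and 1.41, 2.09 and 2.76 CPM with belinostat (chr11:112655242-112656052). Here too the 3 groups did not overlap.

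Of the other peaks with the lowest ratios, the one in an intron of RYR2, the calcium release channel of heart muscle, had 3.11, 3.50 and 5.04 CPM in unstimulated libraries, 1.12, 1.57 and 2.63 CPM with DMSO, and 0.391, 1.07 and 1.41 CPM with belinostat (chr1:237234992-237235633). Its DMSO and belinostat libraries overlapped. A peak in an intron of ASIC2, an acid-sensing ion channel, had 6.46, 8.04 and 9.18 CPM in unstimulated libraries against 1.85, 2.99 and 4.99 CPM with DMSO and 2.15, 2.65 and 3.52 CPM with belinostat (chr17:33766448-33767231). Its 2 conditioned groups lay in the same range. The remaining 3 of the 8 lowest lay in an intron of HCRTR2, an orexin receptor (ratio 0.338), 318 kb from IL20RB, a receptor subunit for cytokines of the IL-20 family (0.350), and 202 kb from MED30, a subunit of the Mediator complex (0.355).

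**Figure D3:**
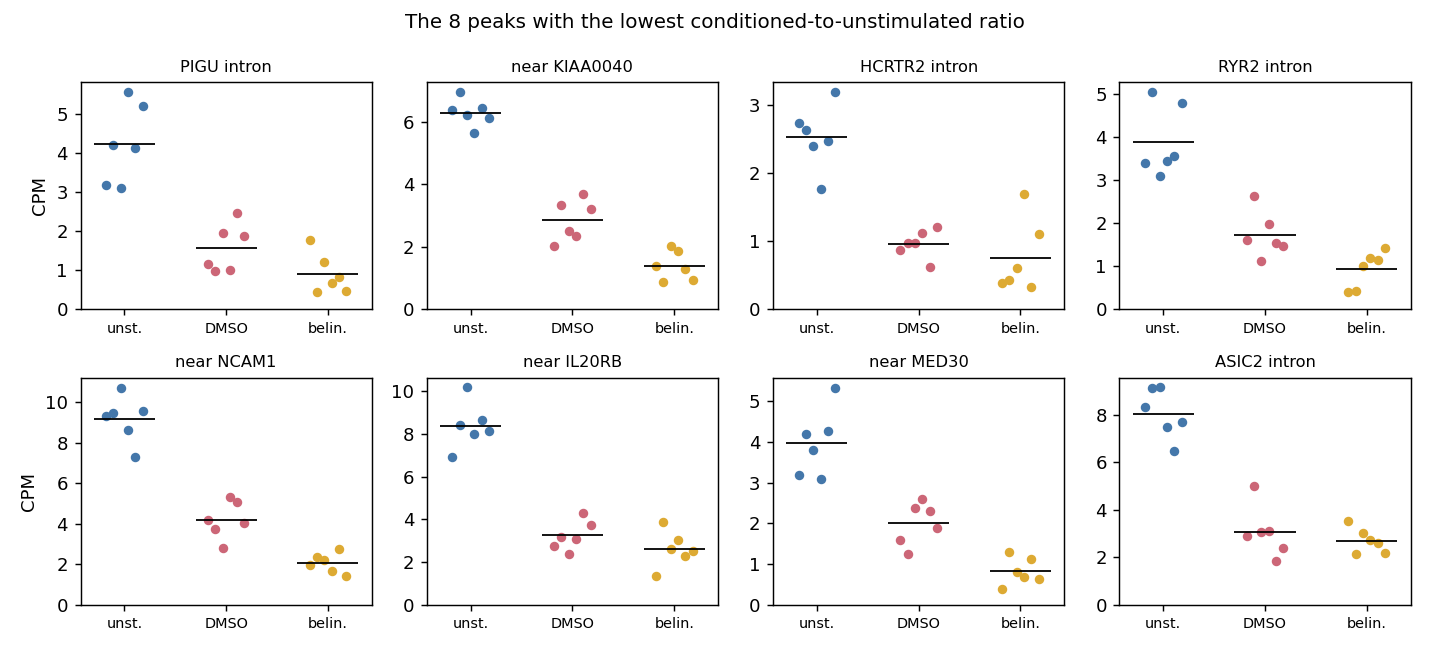
CPM per library (y axes, each from 0) for the 8 peaks with the lowest ratio and an unstimulated mean of at least 2 CPM, in unstimulated (unst.), DMSO and belinostat (belin.) libraries. Points are libraries and bars are group means. In each panel all 12 conditioned points lie under the 6 unstimulated ones, as the rule requires.

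The strongest of the 568 lay 42.9 kb from FMO2, a monooxygenase, with 54.1, 57.3 and 59.1 CPM in unstimulated libraries, 34.1, 43.7 and 48.5 CPM with DMSO and 21.5, 32.6 and 37.2 CPM with belinostat (chr1:171141407-171143222). Other strong ones away from gene starts lay in an intron of VWA3B (unstimulated mean 50.9 CPM), in an intron of MTUS2, a microtubule-associated protein (49.5 CPM), and 117 kb from SCARB1, the receptor for high-density lipoprotein (47.1 CPM). These strong peaks had ratios of 0.617 to 0.668. The weak ones named above were picked for the lowest ratios, so comparing them says nothing about strength. The strong peak near TERF1 named below (unstimulated mean 42.4 CPM) had a ratio of 0.451.

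At the limit of the rule, the last 3 peaks taken had ratios from 0.669 up to the limit. Their nearest coding starts were those of SKOR1 (95.7 kb away), CRYBA4 (479 kb) and SLCO6A1 (119 kb). The first 3 left out had ratios up to 0.671 and lay in introns of EEPD1, STEAP1B and TMTC1, the peak in STEAP1B being 52.6 kb from the start of IL6. The unstimulated means of these 6 ran from 9.64 CPM at STEAP1B to 39.5 CPM near SKOR1, so the limit cuts through a continuous range.

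The closed peaks lay far from gene starts. Of the 568, 67 (11.8%) had their centre within 3 kb of an annotated start, against 17.9% of all peaks and 35.2% of the other 66476 peaks in the 4 strongest bins, called other strong peaks below. For starts of protein-coding genes the count was 27 (4.75%) against 25.5% of the other strong peaks. The median distance to a coding start was 74.4 kb against 24.7 kb, and 60.4% lay more than 50 kb away against 35.1%. An intron held 341 of the peaks (60.0%), intergenic DNA 186 (32.7%) and an exon 41 (7.22%).

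Further properties that the rule did not use were checked. The median width was 706 bases, as in the other strong peaks, while the median GC content of the central 200 bases was 43.0% against 51.0%. The mirror of the whole rule asked for all 12 conditioned libraries above all 6 unstimulated ones. It kept the count floor and asked for an unstimulated mean of at most 0.67 times the conditioned mean. The 1472 peaks that met it had a median GC content of 55.5%. They are an unlike set, weaker (median unstimulated level 0.617 against 9.61 CPM) and narrower (median width 496 bases).

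Among the 27 closed peaks at coding starts, the strongest lay 9 bases from the start of RUNX1T1, a transcriptional corepressor (chr8:92102663-92103927), with 34.7, 37.5 and 43.2 CPM in unstimulated libraries, 23.6, 27.5 and 33.5 CPM with DMSO and 18.0, 20.7 and 27.8 CPM with belinostat. At SMARCA2, which encodes an ATPase of the SWI/SNF chromatin remodeller, the peak had 34.4, 35.7 and 41.8 CPM in unstimulated libraries, 20.2, 27.7 and 29.1 CPM with DMSO and 10.5, 20.3 and 23.0 CPM with belinostat (chr9:1979389-1980349). In both, the DMSO and belinostat groups overlapped. The next strongest lay at GPSM1, a modulator of G protein signalling (unstimulated mean 37.6 CPM, ratio 0.661), and IGFBP6, which binds insulin-like growth factors (26.3 CPM, ratio 0.635).

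The word CAGCTG was present in the central 200 bases of 227 of the 568 (40.0%, 95% Wilson interval 36.02% to 44.05%, counting error only, since peaks are not replicates), against 18.2% of the other strong peaks and 17.2% of all peaks. The word CATCTG, searched on both strands, was present in 184 (32.4%) against 16.0% and 18.7%. One or both were present in 348 (61.3%) against 31.1%, and at least 2 such words in 133 (23.4%) against 6.22%. Among peaks with a GC content of 38 to 48% the shares of CAGCTG were 35.1% and 17.1%, and among peaks over 3 kb from a start 40.9% and 19.7%. The difference thus stood within peaks of like base composition and position.

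The word CAGCTG was most frequent in the middle of the peaks. In the central 40 bases CAGCTG occurred 132 times per 1000 of the 568 peaks, against 45.1 per 1000 other strong peaks. At 260 to 300 bases from the centre it occurred 26.4 times on one side and 42.3 times on the other, against 24.9 and 24.2.

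**Figure D4:**
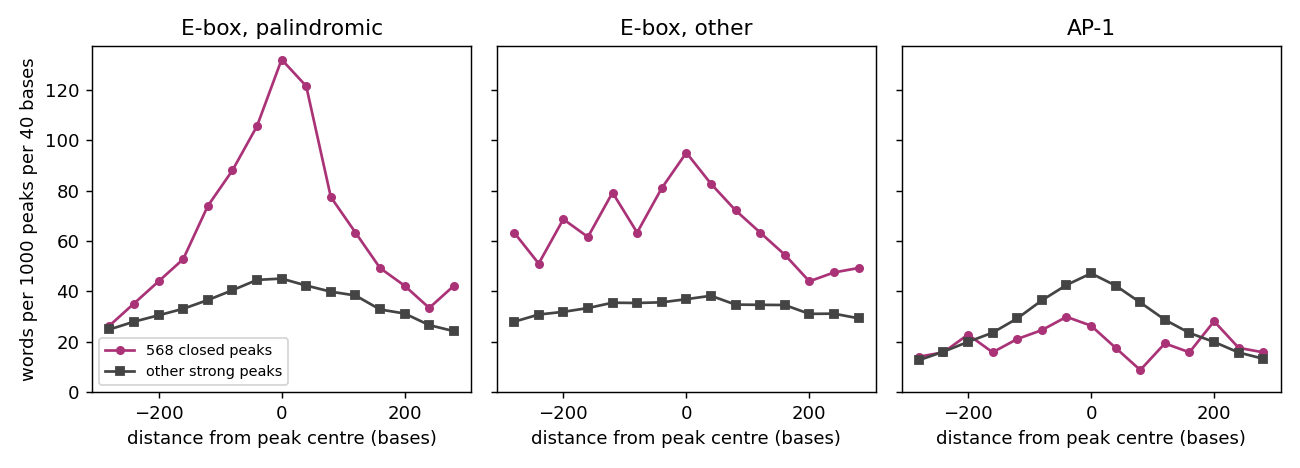
Occurrences per 1000 peaks in bins of 40 bases (y axis) by distance from the peak centre (x axis, bases), for the palindromic E-box, the other E-box and the AP-1 word, in the 568 closed peaks and the other strong peaks. The palindromic E-box reaches 132 per 1000 at the centre of the closed peaks against 45.1, while the AP-1 word reaches 26.4 against 47.2.

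All 10 words of the E-box form, CA and TG around 2 free bases, were compared after the first values were seen, and 8 of them were more frequent in the closed peaks than in the other strong peaks. Among peaks with a GC content of 38 to 48% the ratio of the shares was 2.05 for CAGCTG and 1.81 for CATCTG, counted as its reverse complement. The word CACATG followed at 1.45 (22.1% against 15.2%), CAACTG at 1.35 (16.5% against 12.2%), CATATG (6.67% against 5.07%), CAAATG at 1.18, CAAGTG at 1.06 and CAATTG at 0.990. The words with the lowest ratios were CACGTG of MYC and circadian factors, at 0.890 (2.11% against 2.37%) and CACCTG of SNAI and ZEB repressors, at 0.607 (2.81% against 4.63%). These ratios were not tested against each other.

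The AP-1 word TGANTCA was less frequent in the closed peaks, at 10.2% against 17.8% of the other strong peaks, and at 12.3% against 26.2% among peaks with a GC content of 38 to 48%. GGGCGG, the word of SP and KLF factors at GC-rich promoters, was present in 3.17% against 20.7%, and CCGGAAG, the word of ETS factors, in 0.352% against 3.04%. At like GC content these gaps were far smaller and rested on few closed peaks. GGGCGG then stood at 0.702% (2 peaks) against 1.49%, and CCGGAAG at 0.351% (1 peak) against 0.622%. The MEF2 word was present in 4.05% against 1.10%, and in 4.21% against 1.66% at like GC content. TGTTTAC of forkhead factors (9.15% against 5.64%) and TAATTA of homeobox factors (5.63% against 2.96%) did not keep a higher share at like GC content, where they stood at 8.77% against 9.08% and 4.56% against 4.58%. GGANTTTCC, a word of NF-kB, was present in 1.41% against 1.13%, but in 1.05% against 1.33% at like GC content. TGTGGTT of RUNX factors was present in 5.11% against 5.47%.

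**Figure D5:**
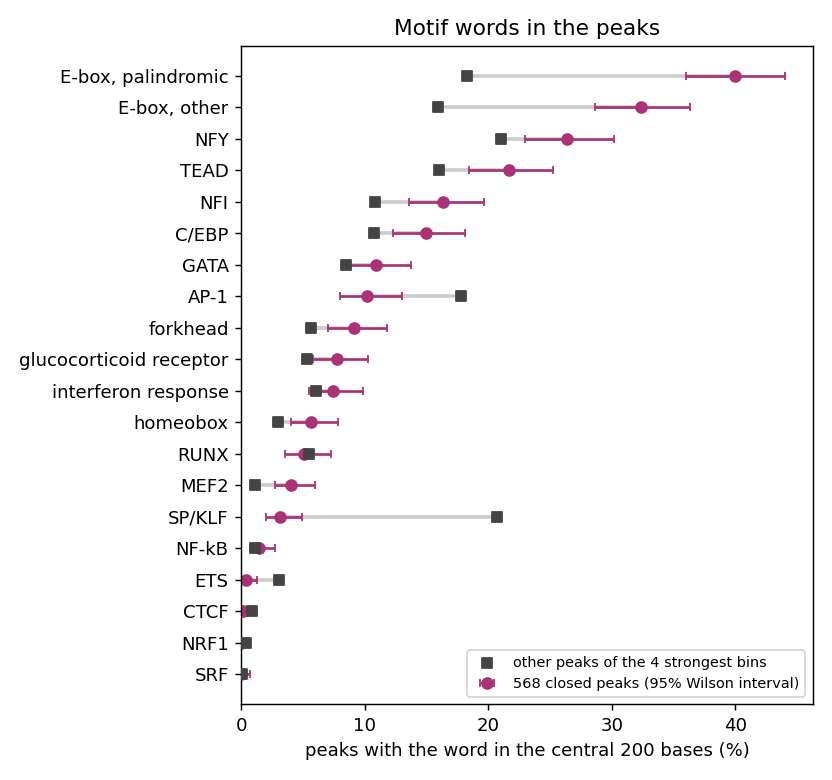
Share of peaks that hold each of 20 motif words on either strand in the central 200 bases (x axis, %), for the 568 closed peaks (circles, 95% Wilson intervals) and the other peaks of the 4 strongest bins (squares). The palindromic E-box stands at 40.0% against 18.2%, AP-1 at 10.2% against 17.8% and SP/KLF at 3.17% against 20.7%.

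The share of E-boxes depended on the drug libraries that entered the rule. When peaks were chosen by the same rule from the unstimulated and DMSO libraries alone, 766 were taken, CAGCTG was present in 28.5% and AP-1 in 9.40%. When they were chosen from the unstimulated and belinostat libraries alone, 3905 were taken, with CAGCTG in 38.8% and AP-1 in 20.4%. Of the 437 peaks that only the choice without belinostat libraries took, 21.7% held CAGCTG, beside 18.2% of the other strong peaks. CAGCTG was thus more frequent than in the other strong peaks under both choices, by more in the choice without DMSO libraries. For AP-1 the reading depended on the comparison. The 20.4% lay above the 17.8% of all other strong peaks. It lay below the 22.7% of those over 3 kb from a start and the 26.2% of those with a GC content of 38 to 48%. The 9.40% lay below all of these. Under the remaining settings of the rule CAGCTG stood at 32.4% with TMM factors, 37.4% with loess, 33.3% at a ratio limit of 0.8 and 38.3% to 41.9% when single libraries were left out.

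A like gradient was present in the 43099 peaks of the 4 strongest bins over 3 kb from a start that are not among the 568. Split into 10 equal parts by ratio, CAGCTG was present in 33.0% of the lowest part (ratios up to 0.768), in 23.8% of the third and in 14.8% of the highest. By the number of CAGCTG and CATCTG words, the median ratio with DMSO went from 0.950 with none to 0.916 with 2 words and 0.907 with 4 or more (81 peaks), while that with belinostat went from 0.957 to 0.827 and 0.697. The order of these medians is a description, since DNA words were not assigned at random and both ratios share the unstimulated libraries.

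Belinostat was then compared with DMSO in one edgeR quasi-likelihood fit over all 334857 peaks, with 2-sided p-values adjusted by Benjamini and Hochberg over all of them. Of the 568, 211 (37.1%) were lower after belinostat and none was higher at an adjusted p under 0.05, where 1.75% of all peaks were lower and 0.607% higher. Before adjustment, 356 of them had p under 0.05 and a negative fold change and 2 had a positive one, and DESeq2 called 215 lower and 0 higher. The median log2 fold change of the 568 was -0.43, beside 0.01 for all peaks and -0.12 for all peaks of the 4 strongest bins, 7.47% of which were lower. With loess offsets, which take out a trend with abundance, 184 were lower and 1 higher, beside 1.55% of all peaks lower.

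This count is not independent of the choice, because the rule also held the belinostat libraries under the unstimulated ones and took them into the mean of the 12. Among the 766 peaks chosen without the belinostat libraries, of which 329 are among the 568, 74 (9.66%) were lower and 42 (5.48%) higher, with a median log2 fold change of 0.05, and 350 (45.7%) had a negative fold change. That choice in turn used the DMSO libraries and favours peaks that are low in them. The 2 choices thus gave medians of opposite sign, and the 211 lend no independent support to a further closing by belinostat. All 6 belinostat libraries lay below all 6 DMSO libraries in 123 of the 568 (21.7%), beside 1.52% of the peaks with at least 100 counts.

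Of the 211 with an unstimulated mean of at least 2 CPM, the 4 with the smallest p lay in intergenic DNA. The p-values of the peaks named here and below share the limit above, since the rule used the same libraries. These 4 were also picked for their small p, so their values describe the extremes of the 211. The peak 180 kb from TRIB1, a pseudokinase (chr8:125610326-125611017), had 15.5, 17.7 and 20.8 CPM in unstimulated libraries, 10.9, 13.3 and 15.5 CPM with DMSO and 4.06, 5.83 and 7.69 CPM with belinostat. The 2 conditioned groups did not overlap, and belinostat stood at -1.34 ± 0.15 against DMSO (log2 fold change ± SE, adjusted p = 9.44e-12). The peak 288 kb from NOCT, a circadian gene, had 14.4, 16.5 and 18.8 CPM in unstimulated libraries, 7.93, 10.8 and 14.4 CPM with DMSO and 3.39, 4.23 and 5.34 CPM with belinostat (chr4:138727511-138728230). Again the groups did not overlap, and the log2 difference was -1.42 ± 0.16 (adjusted p = 9.49e-12).

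The peak 282 kb from HABP2, a hyaluronan-binding protease, fell from a DMSO mean of 12.7 ± 0.692 CPM (SD, n = 6) to 5.48 ± 0.997 CPM, or -1.30 ± 0.15 on the log2 scale (SE, adjusted p = 3.75e-11, chr10:113268195-113268930). The strong peak 43.4 kb from TERF1, which encodes a telomere protein, fell from 24.8 ± 3.00 to 13.5 ± 1.53 CPM, or -0.97 ± 0.12 on the log2 scale (adjusted p = 1.25e-09, chr8:72965055-72965817). The peaks near TRIB1 and HABP2 each held 2 CATCTG words and the one near TERF1 held a CAGCTG, while the one near NOCT held neither word.

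The peaks near KIAA0040 and NCAM1 printed above were also lower after belinostat, with log2 fold changes of -1.12 ± 0.25 (adjusted p = 0.00185) and -1.12 ± 0.21 (adjusted p = 0.000138). Those in PIGU (-0.90 ± 0.33, adjusted p = 0.128), RYR2 (-0.93 ± 0.30, adjusted p = 0.0808) and ASIC2 (-0.28 ± 0.22, adjusted p = 0.526) did not pass. At gene starts, SMARCA2 (-0.59 ± 0.12, adjusted p = 0.000762), GPSM1 (-0.53 ± 0.11, adjusted p = 0.00124) and RUNX1T1 (-0.47 ± 0.12, adjusted p = 0.00974) passed and IGFBP6 did not (-0.35 ± 0.12, adjusted p = 0.117). RUNX1T1 rose to 0.0937 under the least favourable alternative, while PIGU came down to 0.0296 and IGFBP6 to 0.0493 under the most favourable.

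The share of peaks called lower after belinostat was then set beside the number of E-box words. Of the members without CAGCTG or CATCTG 33.2% were lower after belinostat, of those with 1 word 31.6%, and of those with 2 or more 52.6% (70 of 133), with calls that rest on libraries the rule used. In 43099 strong peaks over 3 kb from a start that are not among the 568, and which the rule therefore did not choose, 6.83% were lower with no such word, 12.0% with 1 and 22.7% with 2 or more. With loess offsets these shares were 4.98%, 9.39% and 18.2%. The differences between these shares were not tested.

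The closed peaks were scattered over the genome. Their share of the peaks with at least 100 counts ran from 0.0971% on chromosome 19 to 0.450% on chromosome 9 among the chromosomes that held any, and 30 (5.28%) lay within 10 kb of another one. The median distance to the next was 1107 kb. Among windows of 1 Mb with at least 30 such peaks, the highest share was 3 of 36 on chromosome 3, all nearest to IL20RB at ratios of 0.350 to 0.555 (chr3:137222634-137264890). Next came 2 of 31 near PRKG2, a cGMP-dependent kinase (chr4:81424763-81427892), and 3 of 51 at IGF1, insulin-like growth factor 1, at ratios of 0.611 to 0.633 (chr12:102371796-102459752).

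Gene bodies with 3 kb upstream held 307 of the 568, in 289 of 18132 protein-coding loci (1.59%). PLEKHG1 held the most, with 4 of 22 peaks and unstimulated means of 4.82 to 31.1 CPM at ratios of 0.376 to 0.591. ELMO1, which acts with DOCK proteins on RAC1 in cell migration, held 3 of 53, and MAPKAP1, a subunit of the mTORC2 kinase complex, 3 of 36. PIGU, RYR2, ASIC2, CCDC13, SELENOP and CCNG2 held 2 each, and ENSG00000280571 overlaps CCDC13 and holds the same 2 peaks.

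Of 14 gene lists for fibroblasts and the treatment, 4 held a closed peak in a gene body or 3 kb upstream, where 0.272% of the peaks in all coding loci were closed. Collagens and matrix genes held 2 of 430 peaks, in introns of COL12A1 (ratio 0.564) and COL5A2 (0.587). TGF-beta ligands, receptors and SMADs held 2 of 257, 3.01 kb from the start of TGFBI, a matrix protein induced by TGF-beta (0.548), and in an intron of SMAD6, an inhibitor of BMP signalling (0.613). BMP and WNT niche genes held 1 of 167, in DKK2, which modulates WNT signalling (0.504), and the TEAD and YAP pathway 1 of 237, in WWTR1, which encodes TAZ (0.567). With 1 or 2 peaks a list, these shares are too small to set apart from the background.

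At SMAD6 the peak had 25.8, 28.0 and 32.2 CPM in unstimulated libraries, 12.2, 18.3 and 21.5 CPM with DMSO and 14.8, 16.2 and 20.9 CPM with belinostat (chr15:66747727-66748839). The conditioned groups overlapped, and none of the 6 listed peaks passed the test of belinostat against DMSO (adjusted p of 0.102 to 0.907). At COL12A1 the means were 2.61 ± 0.225 CPM in unstimulated cells, 1.38 ± 0.601 CPM with DMSO and 1.56 ± 0.307 CPM with belinostat.

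No closed peak lay in the contractile genes (0 of 275 peaks), gut mesenchyme transcription factors (0 of 610), inflammatory fibroblast and NF-kB genes (0 of 288), universal fibroblast genes (0 of 160), AP-1 factors (0 of 56), cytokine receptors (0 of 87), growth factor and matrix receptors (0 of 331), cell cycle genes (0 of 80), histone deacetylases (0 of 179) or ribosomal protein genes (0 of 33). In all coding loci 0.272% of the peaks were closed, and each of these lists is too small to set a count of 0 apart from that share. Since most closed peaks lay far from gene starts, members were also assigned to the nearest coding start, a choice made after the data were seen. Collagens and matrix genes then had 6 of 979 (0.613%, at COL12A1, COL5A2, COL6A1 and THBS1), and the mesenchymal transcription factors 4 of 1627 (0.246%, at NR2F2, TBX18, TCF4 and ZEB2), beside 0.313% overall. LIFR, a receptor of the OSM family, BMP4, FZD7, LTBP1, OGN, CD44 and CDK1 were each nearest to 1 closed peak.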

How the data were processed

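Libraries were ATAC-seq of Ccd18-Co cells. The authors' deposited table holds raw fragment counts per consensus peak on hg38. Per the study's methods and the labels, the ENCODE pipeline for ATAC-seq was run on the reads, duplicates and mitochondrial reads were removed, peaks were called with MACS2 and merged across conditions, blacklisted regions were dropped, fragments up to 1000 bases were counted with csaw, and peaks were annotated with ChIPseeker 1.34.1. Starts in the table count from 0, so 1 was added. The authors' filter (average log2 CPM over -3) removed no peak here. Their scaling on background bins needs reads outside peaks and was not used here.

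CPM used column sums over all 334857 peaks. Belinostat was compared with DMSO in edgeR 4.0.16 (glmQLFit and glmQLFTest, TMM factors, 3 group means, 18 libraries, R 4.3.3), with Benjamini-Hochberg adjustment over all peaks and calls at 0.05. The script was tested on simulated counts. Alternatives were library totals, loess offsets, DESeq2 1.42.0, a higher filter, no filter, the DMSO and belinostat libraries alone, a replicate block, and each library left out. Starts, exons and introns came from GENCODE 44. Motif words were matched on both strands of the central 200 bases and may overlap one another. The 20 bins hold equal numbers of peaks by mean CPM. Members and gene lists were chosen with earlier results of these data known. The named peaks are the 8 with the lowest ratio (unstimulated mean at least 2 CPM), the 4 strongest within 3 kb of a coding start and the 4 strongest elsewhere, the 4 with the smallest p in each direction, 1 per listed gene for up to 4 genes a list, the 10 genes with most members, the 3 windows of 1 Mb with the highest share among those with at least 30 peaks over the count floor, and the 3 peaks on each side of the limit. Others named are said to be chosen after their values were seen. Doses follow the labels.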

Additional observations from a re-analysis of the deposited data

Results flagged for a closer look

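Of 108 groups of 6 values examined, 7 had 1 library farther from the others than Dixon's 95% critical value allows, where chance gives about 1 in 20. Among unstimulated libraries, replicate 6 had the highest level at SMARCA2 (41.8 CPM, the others 34.4 to 37.1) and the highest share of peaks without a count (11.3%, the others 1.01% to 4.20%). Among DMSO libraries, replicate 1 was lowest at SMARCA2 (20.2 CPM, the others 26.2 to 29.1), at the peak near HABP2 (11.3 CPM, the others 12.6 to 13.3) and in the share of its counts in the 568 peaks (0.427%, the others 0.481% to 0.506%). Among belinostat libraries, replicate 1 was highest at DKK2 (3.72 CPM, the others 1.21 to 1.88) and in the share of peaks without a count (5.35%, the others 0.505% to 2.24%).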

How the results depend on the processing

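The number of closed peaks was 3788 with TMM-scaled CPM, 88 at a ratio limit of 0.5, 1240 at a limit of 0.8 and 329 when the DMSO mean alone also had to be at most 0.67 of the unstimulated mean, a setting chosen after seeing the data. It was 530 to 784 when single libraries were left out. The set under TMM held all 568. Of peaks lower after belinostat there were 164 to 250 among the 568 over the libraries left out, with 0 higher, but 74 lower and 42 higher when the choice was made without the belinostat libraries. With library totals and with loess offsets 1 was higher. Over all peaks, 3900 to 8703 were lower when single libraries were left out (fewest without DMSO replicate 2), and 1010 to 2864 were higher, against 3673 with library totals, 3182 with loess offsets and 1081 with DESeq2. The share at gene starts was 5.11% within 1 kb and 4.75% for coding starts. For the named peaks, 712 values under an alternative kept their direction and side of the threshold, 11 passed it anew and 2 no longer did. Causes of these changes were not tested. Replicate numbers did not pair the libraries (correlations of deviations of -0.18 to 0.14 between libraries of the same number), and with the replicate block 217 of the 568 were lower and 0 higher, with 6230 lower and 1902 higher over all peaks. Peaks rest on as few as 131 counts over 18 libraries, which limits how firmly weak peaks can be placed.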

Other observations

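In the 43099 strong peaks over 3 kb from a start that are not among the 568, the words differed in how often their peaks were lower after belinostat (edgeR, adjusted p under 0.05). Peaks with CAGCTG were lower in 15.7% and those without in 7.92%, and peaks with the AP-1 word in 12.9% and 8.44%. For GGAATG, the word of TEAD factors, the order was the other way, with 6.31% lower among peaks with the word and 10.2% among those without, and 3.38% against 0.975% higher. Among peaks with a GC content of 38 to 48% the shares lower were 17.4% and 9.61% for CAGCTG, 13.1% and 10.2% for AP-1, and 6.96% and 12.1% for TEAD. These splits were chosen after seeing the data, peaks are not replicates, and the differences between words were not tested.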
